A study of Mus musculus with 32 samples.

Results

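Cited1 is an X-linked gene for a transcriptional coregulator, and the values below follow this single gene, chosen by its symbol out of 1006 X-linked genes listed in the largest table, through every deposited column. It was picked with its rises on the inactive X already known, so its levels and changes are descriptions and carry no test. The samples were mouse XEN cells, which are stem cells derived from extraembryonic endoderm, all from the cross 129S1/SvImj X JF1/Ms. RNA was given by allele, as Xa for the active and Xi for the silenced X chromosome. The labels give 32 RNA samples in 12 groups, and the tables hold 1 merged value per group and allele, so no replicate spread, SD or p-value exists for any difference here. Values are FPKM, fragments scaled for transcript length and library size, and the sequencing depth behind them is unknown.

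One table holds 3 samples of WT, 4 of XistpA, 2 of XRR KO, which are 2 clones merged in 1 column, and 3 of XRRa KO. Another holds XRRb XaKO, XRRb XiKO, XRRc XaKO and XRRc XiKO with 2 samples each. The labels do not explain the names XistpA, XRR, XaKO or XiKO. The remaining tables hold Rad21-degron cells, with 4 samples from 2 clones for DMSO and for dTAG, and Ctcf-degron cells, 2 samples for each treatment, given for 48 h. The labels give no treatment time for the Rad21-degron cells. dTAG is a small molecule that brings about degradation of a tagged protein, here the cohesin subunit Rad21 or the insulator protein Ctcf, and DMSO is its solvent. The DMSO cells carry the tag as well, and how far either protein was depleted was not analysed here.

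CITED1 does not bind DNA by itself. It binds the acetyltransferases CBP and p300 through a conserved acidic C-terminal region and acts as a coactivator with DNA-binding factors such as TFAP2 proteins. In the mouse, loss of Cited1 disturbs placental development, and in extraembryonic lineages the X inherited from the father is the one silenced. Silencing is started by Xist, a noncoding RNA that coats the inactive X. Genes that keep some transcription from that X are called escape genes.

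The cells' identity could be checked with X-linked markers only. Of the extraembryonic endoderm markers, Gpc3 lay between 8.54 and 37.3 FPKM on Xa over the 12 groups, Trap1a between 32.2 and 114 FPKM, and Amot between 1.56 and 4.11 FPKM, while Rhox5 was not in the tables. The trophoblast genes Rhox6 and Rhox9 were listed at 0 in all groups, Esx1 was listed at 0 on Xa in 8 groups and reached 2.92 FPKM, and Plac1 stayed at or below 3.60 FPKM. The epiblast genes Nr0b1 and Fthl17 were listed at 0 on Xa in every group. Broadly used genes such as Hdac8 and Pin4 were also listed at 0 on both alleles in all 12 groups, so a 0 in these tables need not mean that a gene was silent. The autosomal markers that define XEN cells are outside these X-linked tables.

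Cited1 lies on the minus strand of the X. GENCODE M21 (GRCm38) gives it 5 transcripts, all protein-coding, and 0 overlapping genes. Its transcripts aligned to the transcripts of 0 other genes, so near-identical copies are not a source of uncertainty for its level. RefSeq (GRCm38.p6, another build than the mm9 that the processing notes name) lists 3 start windows of 300 bases, each from 250 bases before a start. The outermost and the most CG-rich of them are printed 5′ to 3′ on the gene's strand, to show the region from which both alleles are transcribed. They come from the C57BL/6J reference and not from either parental strain. Capitals mark matches on either strand to 3 short motifs. The TATA box was searched as the letters TATAAA. The GC box, which binds SP1-type factors, was searched as the letters GGGCGG. The motif of GATA factors, which mark endoderm lineages, was searched as the letters GATAA.

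Cited1 outermost start, chrX:102252132-102252431, minus strand: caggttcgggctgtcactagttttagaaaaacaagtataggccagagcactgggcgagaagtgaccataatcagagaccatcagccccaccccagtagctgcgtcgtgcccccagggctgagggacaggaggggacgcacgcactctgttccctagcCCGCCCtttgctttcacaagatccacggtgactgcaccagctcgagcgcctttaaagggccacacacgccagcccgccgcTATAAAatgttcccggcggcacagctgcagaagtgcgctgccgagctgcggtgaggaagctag
Cited1 innermost start, chrX:102250727-102251026, minus strand: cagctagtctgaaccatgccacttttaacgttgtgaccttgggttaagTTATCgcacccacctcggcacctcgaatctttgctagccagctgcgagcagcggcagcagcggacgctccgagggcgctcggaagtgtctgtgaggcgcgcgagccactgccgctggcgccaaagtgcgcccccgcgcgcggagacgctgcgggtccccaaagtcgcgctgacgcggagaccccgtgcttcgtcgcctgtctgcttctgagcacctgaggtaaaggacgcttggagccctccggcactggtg

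The outermost window holds 18 CG dinucleotides and the innermost 32, against a median of 7 over all 32851 RefSeq windows of this length. The TATAAA match of the outermost window begins 13 bases before the listed start, and whether it works as a TATA box for that start was not tested. A TATAAA match is found in 13.6% of all windows, a GGGCGG match in 35.7% and a GATAA match in 25.4%, so none of the 3 is rare, and the files do not say which start is used on which allele.

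In WT cells Cited1 was transcribed almost wholly from the active X. It stood at 115 FPKM on Xa and 5.96 FPKM on Xi, an Xi share of 4.95% of the sum of both alleles. It was a strongly expressed gene, the 24th highest on Xa of the 270 genes tested in this table, whose median on Xa was 8.02 FPKM. A gene counts as tested where Xa plus Xi averaged at least 1 FPKM across its table. Its Xi level was the 14th highest of the same 270 genes, but its share was only the 38th highest, below the 33 genes whose share reached 10%. Besides Cited1, 3 tested genes combined an Xi level of at least 1 FPKM with a share below 10%. They were Nsdhl, a cholesterol synthesis enzyme (9.68%), Tceal8 (2.91%) and Morf4l2 (1.45%).

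In XistpA cells the Xi copy of Cited1 was about as active as the Xa copy. Cited1 was at 126 FPKM on Xa and 116 FPKM on Xi, a share of 47.9%. In XRR KO it was at 66.3 FPKM on Xa and 54.9 FPKM on Xi, a share of 45.3%. In XRRa KO it was at 78.6 FPKM on Xa and 19.0 FPKM on Xi, a share of 19.4%. The Xi level thus ran from WT over XRRa KO and XRR KO to XistpA, while the Xa level was highest in XistpA and lowest in XRR KO. Xist on Xi ran the other way over these 4 columns, at 15.5 FPKM in WT, 7.86 FPKM in XRRa KO, 1.18 FPKM in XRR KO and a listed 0 in XistpA. Tsix, listed next to Xist in the order of tested genes, was on Xi at 31.2 FPKM in WT and 16.5 FPKM in XRRa KO. It was at a listed 0 in XRR KO and XistpA. How reads were divided between Xist and Tsix is unknown here, so the levels of both are uncertain.

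**Figure D1:**
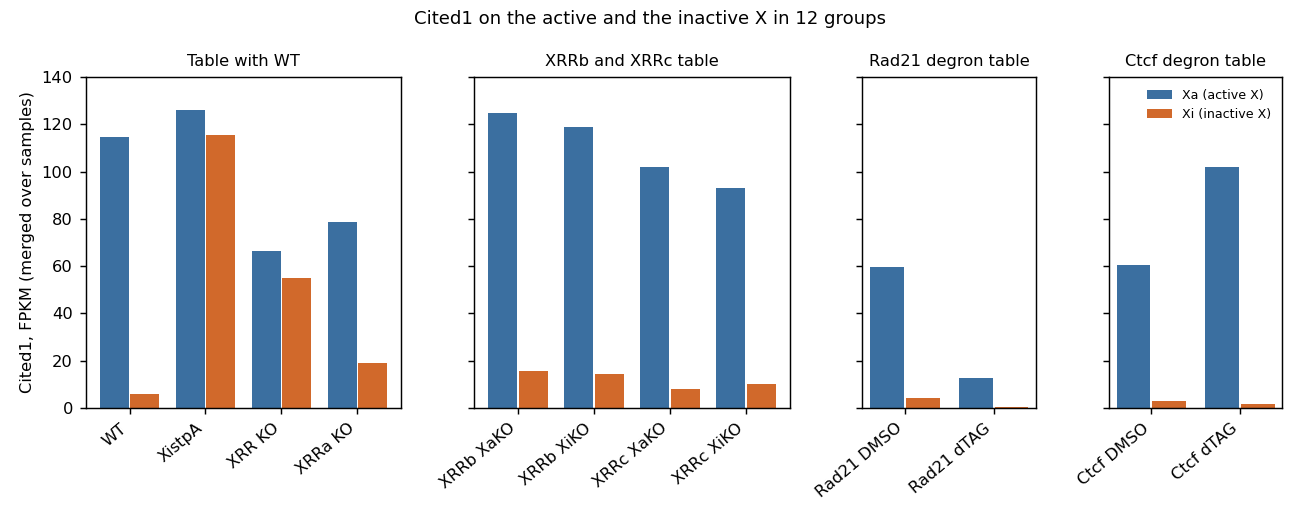
Cited1 FPKM on Xa (blue bars) and Xi (orange bars) in the 12 groups, 1 merged value per bar and 1 panel per deposited table. The Xi bar nearly reaches the Xa bar in XistpA (116 against 126 FPKM) and XRR KO (54.9 against 66.3 FPKM), and both bars are lowest in Rad21-degron cells treated with dTAG.

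Against WT, Xi expression of Cited1 was 19.4 times as high in XistpA, 9.22 times in XRR KO and 3.18 times in XRRa KO. Changes are given as differences of log2(FPKM + 0.5), on which changes of weakly expressed genes come out too small, and "rose" or "fell" means a change of 1 or more on it. On this scale Cited1 rose on Xi by 4.17 in XistpA, by 3.10 in XRR KO and by 1.59 in XRRa KO. Of all tested genes, 12.2%, 15.9% and 5.93% rose on Xi in the same comparisons, and the median Xi change was 0.00 in each. Of the 270 tested genes, 178 were listed at 0 on Xi in WT, so this median does not show steady Xi expression. Cited1 had the 9th, 11th and 11th highest Xi change of 270 genes. The 3 comparisons share the WT column, so the same WT value enters each of them.

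By place, Cited1 stood in XistpA between Fundc1, a mitophagy receptor gene (4.20), and Mum1l1 (3.51). In XRR KO it stood between Tceal8 (3.17) and Atg4a, a protease gene of the autophagy pathway (2.86). In XRRa KO it stood between Atg4a (1.63) and 2210013O21Rik (1.40). Atg4a has a near-identical copy, so its values are uncertain.

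In XistpA and XRR KO, though not in XRRa KO, Cited1 stood nearer to the front by its gain in share than by its Xi change. Its share gained 42.9 percentage points in XistpA, the 3rd largest gain of the tested genes, 40.3 points in XRR KO (6th) and 14.5 points in XRRa KO (11th). Of 237 genes with a share below 10% in WT, 25 reached 10% in XistpA, and 5 of these reached 40%. Cited1 had the 2nd highest share among the 237. In XRR KO 26 reached 10% and 6 reached 40%, with Cited1 in 3rd place. In XRRa KO 11 reached 10% and 0 reached 40%, with Cited1 in 6th place.

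The Xa copy moved less. Its change was 0.14 in XistpA, -0.78 in XRR KO and -0.54 in XRRa KO, none past the size rule. Of all tested genes 1.11% rose and 3.33% fell on Xa in XistpA, 1.11% rose and 3.7% fell in XRR KO, and 0.37% rose and 0.37% fell in XRRa KO. The median change on Xa of all tested genes was -0.02, -0.19 and 0.02. In XRRa KO Cited1 had the 5th lowest Xa change of 270, a place that ran from 1st to 8th with other filters on low genes. In XRR KO it had the 35th lowest.

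The sum of both alleles therefore differed between lines with near-equal shares. It was 120 FPKM in WT, 242 FPKM in XistpA, 121 FPKM in XRR KO and 97.5 FPKM in XRRa KO. The sum rose by 1.00 in XistpA, just past the size rule, where 1.48% of tested genes rose, and it was the 4th highest change of 270, or the 2nd highest with a filter of 5 FPKM. In XistpA 4.07% of tested genes had a sum that fell. In XRR KO the change of the sum of Cited1 was 0.01, where 2.22% of genes rose and 4.44% fell, and in XRRa KO it was -0.30, where 0.37% rose and 0.37% fell. Set directly beside each other, XistpA had 2.11 times the Xi level and 1.90 times the Xa level of XRR KO, so the levels of both alleles differed while the shares, 47.9% and 45.3%, were close. XRR KO in turn had 2.90 times the Xi level of XRRa KO and 0.844 times its Xa level.

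**Figure D2:**
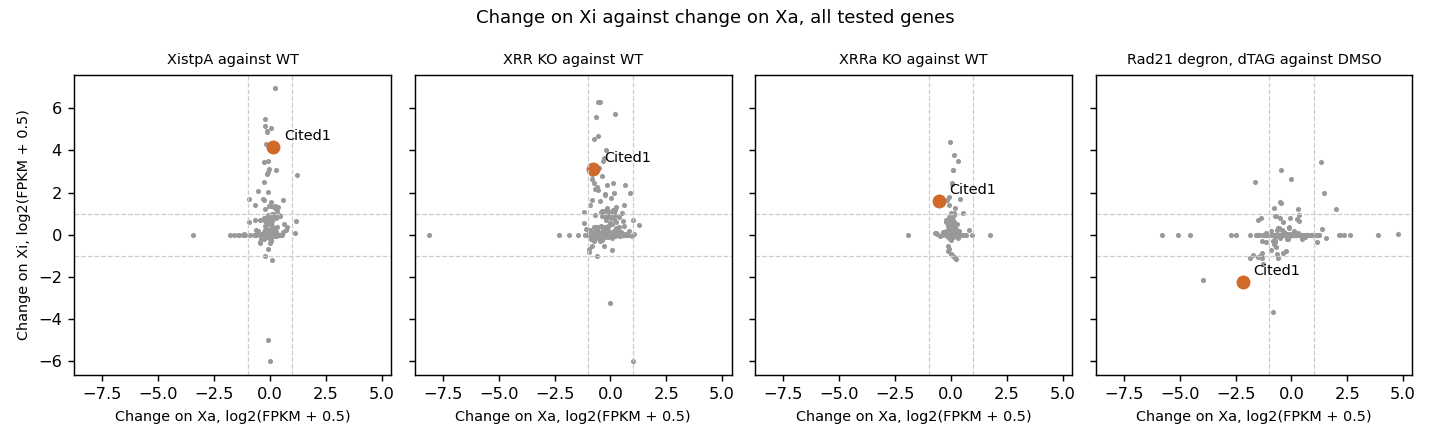
Change of every tested gene on Xi (vertical axis) against its change on Xa (horizontal axis), as differences of log2(FPKM + 0.5), with dashed lines at a change of 1 in either direction. Grey points are genes and the orange point is Cited1, which lies high with little Xa change in XistpA (4.17 on Xi, 0.14 on Xa) and low on both axes with dTAG in Rad21-degron cells (-2.25 and -2.19).

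In the XRRb and XRRc lines Cited1 kept a modest Xi level. It was at 125 FPKM on Xa and 15.8 FPKM on Xi in XRRb XaKO, and at 119 and 14.3 FPKM in XRRb XiKO, shares of 11.2% and 10.7%. It was at 102 FPKM on Xa and 7.998 FPKM on Xi in XRRc XaKO, and at 93.2 and 10.04 FPKM in XRRc XiKO, shares of 7.29% and 9.72%. All 4 shares lay above the 4.95% of WT, and all 4 below the 19.4% of XRRa KO, but WT belongs to another table, so only shares are set side by side.

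XiKO against XaKO gave Cited1 no change past the size rule. On Xi the change was -0.14 in XRRb, where 1.92% of tested genes rose and 0% fell, and 0.31 in XRRc, where 0.766% rose and 1.53% fell. On Xa it was -0.07 in XRRb, where 0.766% rose and 2.3% fell, and -0.13 in XRRc, where 1.15% rose and 1.15% fell. The sum changed by less than the size rule too, by -0.08 and -0.09, where 0.766% of sums rose and 2.3% fell in XRRb and 1.15% rose and 0.766% fell in XRRc. The difference between XRRb XaKO and XRRc XaKO on Xi, 15.8 against 7.998 FPKM, was larger than either XiKO difference. Xist on Xi was 10.9 FPKM in XRRb XaKO, 6.72 FPKM in XRRb XiKO, 8.35 FPKM in XRRc XaKO and 9.74 FPKM in XRRc XiKO. Whether the Cited1 share goes with the Xist level was not tested.

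In Rad21-degron cells Cited1 was lower with dTAG than with DMSO on both alleles. Cited1 was at 59.5 FPKM on Xa and 4.05 FPKM on Xi with DMSO, and at 12.7 FPKM on Xa and 0.453 FPKM on Xi with dTAG. It fell by 2.19 on Xa, where 6.48% of tested genes rose and 15% fell. On Xi it fell by 2.25, where 4.05% rose and 3.24% fell. The sum fell by 2.23, where 6.48% rose and 13.8% fell. The Xa change was the 7th lowest of 247 genes, between those of Las1l (-1.85), a gene for ribosome assembly, and the deubiquitinase gene Usp51 (-2.48). The Xi change was the 2nd lowest, after Morf4l2 (-3.67). With DMSO 198 of the 247 genes were listed at 0 on Xi and could not go lower. The median Xa change of all tested genes was -0.26, much smaller than that of Cited1.

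On the plain FPKM scale Xi was at 0.112 times its DMSO level and Xa at 0.213 times. The Xi share was 6.36% with DMSO and 3.45% with dTAG, and it changed by -2.92 percentage points. This difference rests on an Xi value below 0.5 FPKM. With 0.5 FPKM added to each allele the shares were 7.04% and 6.74%, and with a pseudocount of 0.1 the changes were -2.91 on Xi and -2.22 on Xa. To the digits deposited, the Xa value with dTAG was 28.0 times the Xi value, the ratio of 28 to 1. With DMSO the values had the ratio of 103 to 7. These are ratios of small whole numbers. The Xist level on Xi went from 28.0 to 35.6 FPKM.

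In Ctcf-degron cells the alleles moved in opposite directions, neither past the size rule. On Xa Cited1 was at 60.3 FPKM with DMSO and 102 FPKM with dTAG, a change of 0.76, where 5.42% of tested genes rose, 0.722% fell and the median Xa change was 0.23. On Xi it was at 2.92 FPKM with DMSO and 1.76 FPKM with dTAG, a change of -0.60, the 7th lowest of 277 genes, where 0.361% rose and 0.361% fell. With DMSO 214 of the 277 genes were listed at 0 on Xi and could not go lower. The sum changed by 0.71, where 5.05% rose and 0.722% fell. The share was 4.63% with DMSO and 1.69% with dTAG, the lowest of the 12 groups. Xist on Xi hardly differed, at 18.6 and 18.7 FPKM.

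By share, the 12 groups fell in the order XistpA, XRR KO, XRRa KO, XRRb XaKO, XRRb XiKO, XRRc XiKO, XRRc XaKO, Rad21-degron with DMSO, WT, Ctcf-degron with DMSO, Rad21-degron with dTAG and Ctcf-degron with dTAG. The step from XRR KO to XRRa KO (45.3% to 19.4%) and that from XRRa KO to XRRb XaKO (19.4% to 11.2%) are the widest. No spread is known for any neighbours in this order, so it cannot be said which of them differ. With 0.5 FPKM added to each allele Rad21-degron with dTAG, at 6.74%, stood above WT at 5.32%.

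**Figure D3:**
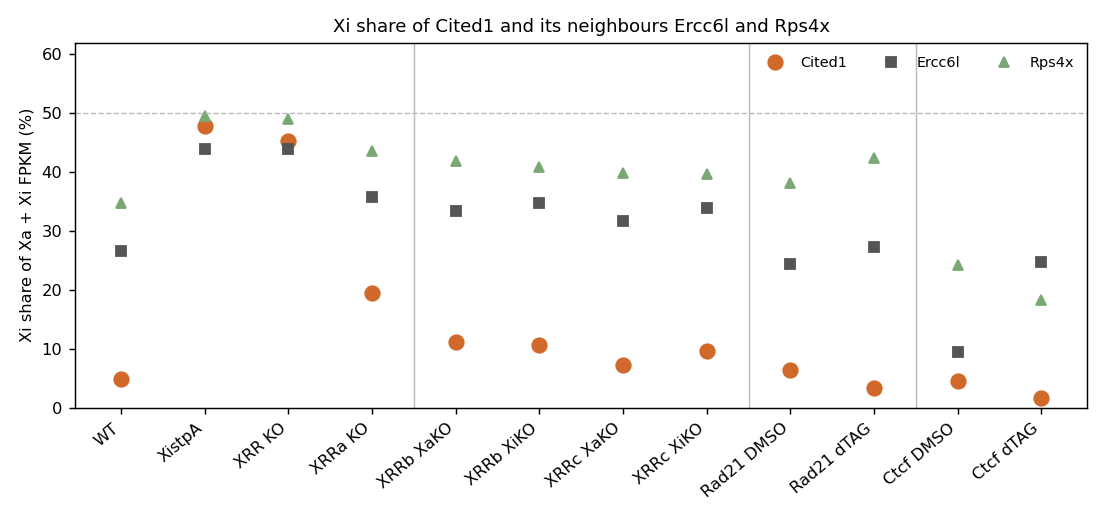
Xi share of Cited1 (orange circles), Ercc6l (grey squares) and Rps4x (green triangles) in the 12 groups, in percent of Xa plus Xi FPKM. Vertical lines part the 4 tables and the dashed line marks 50%. Cited1 lies below both neighbours in every group except XistpA and XRR KO, where it lies between them.

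Cited1 borders on a small stretch of the X with Xi expression. In RefSeq gene order its neighbours on one side are Rps4x, a ribosomal protein gene, and Ercc6l, a gene for a mitotic DNA translocase. Both are expressed on Xi in WT, Ercc6l with a share of 26.6% and Rps4x with 34.8%. Rps4x has near-identical copies under 7 other gene names, so its level and share are uncertain, while Ercc6l has 0. On the other side the next gene tested in any table was Phka1, a subunit gene of phosphorylase kinase, with 0 on Xi in every group. Hdac8, Dmrtc1b, Rgag4 and Pin4 were listed at 0 on both alleles throughout, and Nhsl2, Gm14858 and Gm9112 were too low to be tested. Xist lies further on that side, with 19 listed genes in between, of which 4 were tested in the WT table.

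Ercc6l and Rps4x changed less on Xi than Cited1, but from WT shares of 26.6% and 34.8%, far above the 4.95% of Cited1. A rise to near-equal alleles is therefore a smaller change for them, and Cited1 was chosen for its rise. Ercc6l reached a share of 43.9% in XistpA, 44.0% in XRR KO and 35.8% in XRRa KO, with Xi changes of 0.90, 0.90 and 0.49. Rps4x reached 49.6%, 49.0% and 43.6%, with Xi changes of 0.76, 0.41 and 0.42. In XistpA and XRR KO the share of Cited1 lay between those of Ercc6l and Rps4x, while in WT it was far below both. Of the 12 tested genes nearest to Cited1, 6 on each side, the 8 other than Ercc6l, Rps4x, Xist and Tsix had a share of at most 0.532% in all 4 columns of the table, and 0 of them met the size rule on Xi in any of the 3 comparisons, where 12.2%, 15.9% and 5.93% of all tested genes rose. With 8 genes such a count differs little from these shares. Among them are Ogt and Taf1 beyond Ercc6l, and Chic1 and Rlim towards and beyond Xist.

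**Figure D4:**
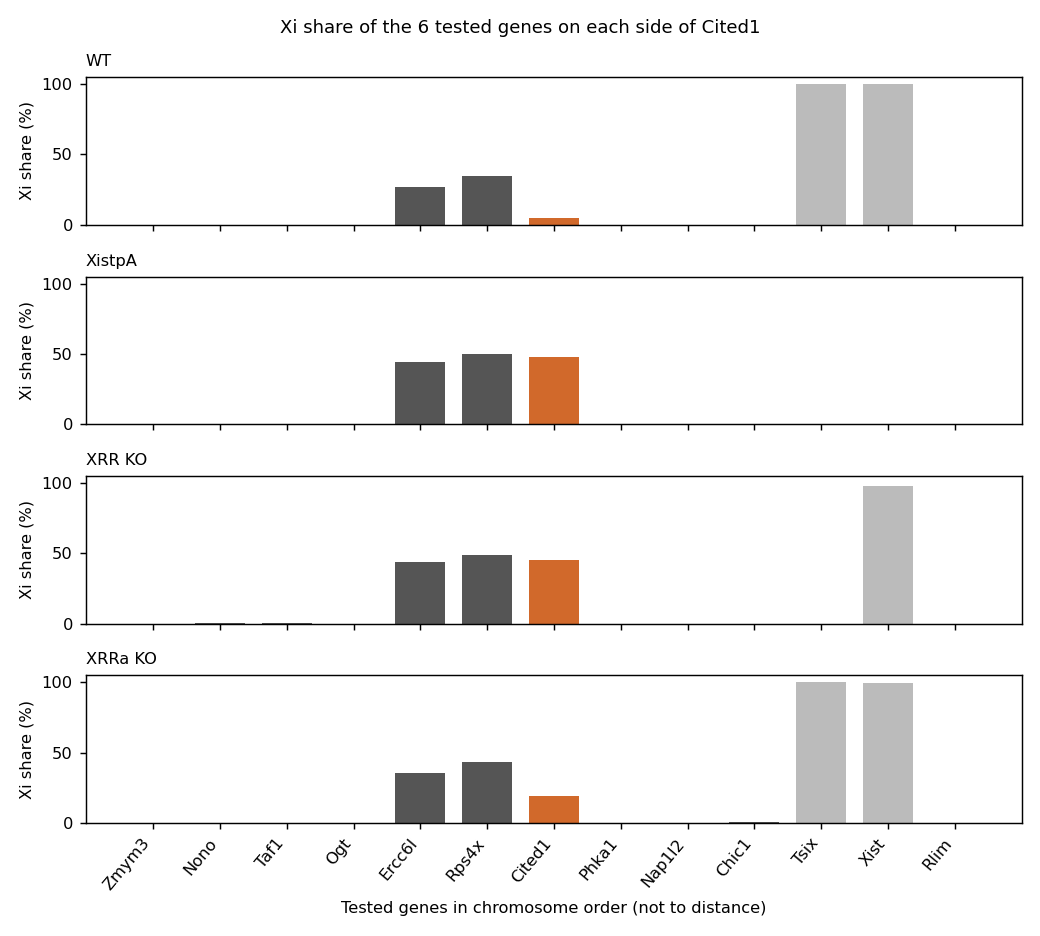
Xi share in percent of the tested genes around Cited1 in chromosome order, evenly spaced and not to distance, in WT, XistpA, XRR KO and XRRa KO. The orange bar is Cited1, dark bars are other genes and light bars are Xist and Tsix. Cited1 goes from 4.95% in WT to 47.9% in XistpA beside Ercc6l and Rps4x. The genes on either side of these 3, other than Xist and Tsix, stay near 0.

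With dTAG in Rad21-degron cells Ercc6l fell on both alleles as Cited1 did, and Rps4x did not. Ercc6l went from 5.97 to 1.76 FPKM on Xa, a change of -1.51, and from 1.93 to 0.662 FPKM on Xi, a change of -1.06. The Xi change of Ercc6l is just past the size rule and rests on low values. Of all tested genes 15% fell on Xa and 3.24% on Xi, and whether the 2 genes fell for a shared reason was not tested. Rps4x had changes of -0.21 on Xa and 0.05 on Xi. Ercc6l had a share of 24.4% with DMSO and 27.3% with dTAG, and Rps4x 38.1% and 42.4%, where the share of Cited1 went from 6.36% to 3.45%. In Ctcf-degron cells Ercc6l went from 9.53% to 24.8% and Rps4x from 24.3% to 18.3%. The Ercc6l shares there rest on low Xi values, 0.451 and 1.27 FPKM, a change of 0.90 and within the size rule.

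The genes whose Xi share was most like that of Cited1 over the 12 groups were Morf4l2 (Pearson r of 0.979), Eda2r (0.970), Stard8 (0.967), Atg4a (0.966) and C1galt1c1 (0.962), out of 192 genes tested in all 4 tables with a share that varied. The shares of XistpA and XRR KO lie far from the other points, and all 12 come from merged columns of 4 tables. Morf4l2, a subunit of histone acetyltransferase complexes, had 34.4% in XistpA, 37.6% in XRR KO and 7.79% in XRRa KO. Eda2r, a receptor of the tumour necrosis factor receptor family, had 42.5%, 45.3% and 13.4%. C1galt1c1, a chaperone gene for O-glycan synthesis, never passed 1.37%, so its likeness is one of shape and not of level. Without XistpA and XRR KO, Morf4l2 was still 4th of 163 genes (0.820), while Eda2r dropped to 37th. By Spearman's rho over the 12 groups, Morf4l2 was 3rd of 192 genes (0.859) and Eda2r 111th (0.385). Morf4l2 has a near-identical copy, so its values are uncertain.

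On Xa the most similar profiles, as log2(FPKM + 0.5) centred within each table, were those of Pqbp1, a gene for a splicing-linked protein (r of 0.954), Nkap (0.938), Ftsj1, an RNA methyltransferase gene (0.936), Pja1, a ubiquitin ligase gene (0.936), and Eif1ax, a translation initiation factor gene (0.930), among 232 genes. Like Cited1, each was lower with dTAG than with DMSO in Rad21-degron cells, Pqbp1 at 10.8 against 23.5 FPKM and Pja1 at 3.86 against 13.2 FPKM. These genes were picked for likeness to Cited1 over columns that include this pair, so a shared decrease follows largely from the choice. Over all tested genes the median Xa change there was -0.26, and 15% fell on Xa.

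Among other X-linked genes with extraembryonic expression, a minority rose on Xi. Of 18 such genes 14 were tested in the WT table. In XistpA 3 rose on Xi, namely Cited1, Tceal8 (from 4.81 to 38.1 FPKM) and Bex1 (from a listed 0 to 0.849 FPKM). Bex2 fell there, from 0.569 to 0.0336 FPKM. In XRR KO 4 rose, namely Cited1, Tceal8, Trap1a (from a listed 0 to 1.34 FPKM) and Amot (from 0.0114 to 0.765 FPKM). In XRRa KO 3 rose, namely Cited1, Tceal8 and Wbp5, while Bex2 fell to a listed 0. The calls of Bex1, Bex2, Trap1a and Amot rest on low Xi values. Of all tested genes 12.2%, 15.9% and 5.93% rose on Xi in these comparisons, and 1.48%, 1.11% and 1.11% fell. Cited1, which was chosen for its rise, is 1 of the members counted each time. The list's median Xi change was 0.00 in XistpA, 0.13 in XRR KO and 0.00 in XRRa KO, beside 0.00 for all tested genes each time. Gpc3 had an Xi value of 0 throughout, and Rlim, a ubiquitin ligase gene, reached 0.0383 FPKM at most.

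On Xa the list had 0 rises in these 3 comparisons, where 1.11%, 1.11% and 0.37% of all tested genes rose. Gpc3, a heparan sulfate proteoglycan gene, and Xlr4a fell in XistpA, and Xlr3a and Xlr4a fell in XRR KO, where 3.33% and 3.7% of all tested genes fell on Xa. In Rad21-degron cells 12 members were tested. Cited1 alone of these fell on Xa or on Xi, with a list median of -0.43 on Xa beside -0.26 for all tested genes. Of all tested genes 15% fell on Xa and 3.24% on Xi. With DMSO only Cited1, Tceal8 (10.8 FPKM) and Wbp5 (78.3 FPKM) were above 0 on Xi, so the other members could not fall there. Ngfrap1 rose on Xi, from a listed 0 to 0.985 FPKM, where 4.05% of all tested genes rose.

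Among X-linked transcriptional coregulators, a list of 27 genes of which 22 were tested in the WT table, Cited1 rose on Xi together with Morf4l2 and the histone demethylase gene Kdm5c in XistpA and in XRR KO, and together with Morf4l2 in XRRa KO. These 3, 3 and 2 of 22 members, Cited1 included, stand beside 12.2%, 15.9% and 5.93% of all tested genes, so the counts do not set the list apart. Kdm5c went from 0.763 FPKM on Xi in WT to 2.76 FPKM in XistpA and 2.80 FPKM in XRR KO. None of the 22 fell on Xi, where 1.48%, 1.11% and 1.11% of all tested genes fell. In WT only Cited1 (5.96 FPKM), Morf4l2 (4.46 FPKM) and Kdm5c were high enough on Xi for a fall to meet the size rule. The other tested members were at or below 0.0100 FPKM on Xi in WT, so the absence of falls says nothing about them. The median Xi change was 0.00 in each comparison, as for all tested genes. On Xa 0 members rose or fell in these 3 comparisons. Of all tested genes 1.11%, 1.11% and 0.37% rose on Xa and 3.33%, 3.7% and 0.37% fell. With 22 genes a count of 0 differs little from these shares. With dTAG in Rad21-degron cells Cited1 and Morf4l2 fell on Xi, and Cited1, Hcfc1 (-1.15) and Nono (-1.13, with a near-identical copy) fell on Xa, out of 21 tested. Over all tested genes 3.24% fell on Xi and 15% on Xa, the latter close to the list's 3 of 21.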

How the data were processed

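Smart-seq2 libraries were made from polyadenylated RNA of 32 samples, per the labels. Tools listed in the submitters' processing notes are StringTie 2.1.1, HISAT2 2.2.0 and Trim Galore 0.6.4, with mm9 as build. The method that split reads by allele is unknown here. The authors deposited 4 tables of FPKM values for Xa and Xi in 24 columns, 1 per group and allele, which the tables' names call merged. FPKM carries no read total, so the depth is unknown. The Ctcf columns name the treatment alone and were matched by their table's name.

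Levels were compared within a table and shares across tables. Genes were tested at a mean Xa plus Xi of 1 FPKM or more (270, 261, 247 and 277 genes), with a pseudocount of 0.5 and a size rule of 1 on the log2 scale. Cited1 and the lists were chosen with earlier results of these data known. Other genes named are its 5 listed neighbours on each side, the 5 likest by Xi share and by Xa, those next to it by change, and list members. Nsdhl, Ogt, Taf1 and Chic1 were named after their values were seen. The window of 6 tested genes on each side was also set after its values were seen, and 1 marker of the epiblast list is not reported here.

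Gene order came from RefSeq GRCm38.p6, which placed 997 of 1006 genes. Near-identical copies are other genes' GENCODE M21 transcripts aligned with minimap2 2.31 at 95% identity or more over 50% of the length. Wbp5, Rgag4 and 2210013O21Rik had no transcript under that name. The size rule, scaling and likeness were checked on simulated data. The scripts ran in Python 3.11.15 with matplotlib 3.10.9, pandas 2.3.3 and numpy 2.4.6.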

Additional observations from a re-analysis of the deposited data

Results flagged for a closer look

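With dTAG against DMSO, Cited1 on Xa changed by -2.19 in Rad21-degron cells and by 0.76 in Ctcf-degron cells, and the sum of both alleles changed by -2.23 and 0.71. The directions are opposite in every column there is, which is 1 merged pair per line, and the difference between the lines was not tested. The lines belong to separate tables, and the labels give a treatment time for the Ctcf cells only.

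With XiKO against XaKO, Cited1 on Xi changed by -0.14 in XRRb and by 0.31 in XRRc. These directions are opposite as well, the difference was not tested, and both changes are within the size rule.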

How the results depend on the processing

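All values come from 1 merged column per group and allele, so leaving out replicates was not run, and no result has a replicate error. No paired analysis was possible because the columns carry no replicate numbers. The changes of Cited1 on Xi and on Xa in the 7 comparisons kept their side of the size rule under pseudocounts of 0.1 and 1, columns scaled to equal median or equal total Xa FPKM, and centring on the median Xa change, 35 values for each allele. The direction held in all 35 on Xi and turned in 2 of 35 on Xa, both in XRRb, from -0.07 to 0.08 at equal median and 0.02 when centred. It turned in 3 of 35 for the sum, all in XRRb and XRRc and far within the size rule. With no filter and with a filter of 5 FPKM, the 5 printed places by Xi change stayed the same. By Xa change the place in XRRa KO, 5th lowest, was 8th and 1st, while those in XRR KO and Rad21-degron cells moved by less than 1.5 times. By the sum in XistpA, an alternative chosen after seeing the data, the 4th place was 6th and 2nd. The rise of the sum in XistpA, 1.00, was at 0.999 with a pseudocount of 1, just short of the rule. With 0.5 FPKM added to each allele, the share in XRRc XiKO was 10.1% and so crossed 10%, and that in Rad21-degron cells with dTAG was 6.74% in place of 3.45%. Of the 5 genes likest by Xi share, 1 (Morf4l2) was again among the first 5 by Spearman's rho, and 1 without XistpA and XRR KO. Counts over all tested genes moved by over 1.5 times in 64 of 140 recounts (other pseudocounts, filters and a size rule of 2), so the background percentages hold for the stated settings.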

Other observations

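The Xa to Xi ratios of Cited1 could be written with small whole numbers in some columns and not in others. In WT the ratio was that of 173 to 9, and in Rad21-degron cells that of 103 to 7 with DMSO and 28 to 1 with dTAG, each within the rounding of the last deposited digit. Among tested genes with both alleles above 0, the smaller number was 10 or less for 62.2% of 90 genes in WT, 61.3% of 111 in XRRa KO, 62.5% of 48 and 64.8% of 54 in Rad21-degron cells with DMSO and dTAG. It was 10 or less for between 5.97% and 14.3% of the genes in the other 8 groups, XistpA and XRR KO included. Columns of 1 table therefore differ in how coarse their allelic ratios are, and what this has to do with depth or with the merging of samples was not tested.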
